A study of Homo sapiens with 6 samples.

Results

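The acute-phase and epithelial defence genes described here are 8 genes, SAA1, SAA2, PI3, SLPI, LCN2, IL32, C3 and CFB, taken by symbol from the 29122 gene rows of the deposited count table. They were chosen by their higher levels in the BCLAF1-depleted than in the control libraries of this same experiment, so their differences are given below as a description, without p-values. The study profiled polyadenylated RNA from A549 cells, a human lung carcinoma epithelial cell line. In 3 libraries the cells carried a short hairpin RNA against BCLAF1, a nuclear factor with roles in transcription and splicing, delivered stably by lentivirus. In the 3 control libraries the same line carried a hairpin against firefly luciferase, a target that human cells lack. Sample names write "si" for the depleted cells, whereas the protocol describes hairpins. The sources used here do not give how many hairpins were used or whether cells were cloned. The labels do not say that replicates are separate cultures. The p-values below thus measure only the spread among 3 libraries a group, part or all of which may be technical.

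These genes belong to the innate defence programme that liver and surface epithelium switch on during infection or injury. SAA1 and SAA2 encode serum amyloid A, an apolipoprotein of the acute-phase response. PI3 (elafin) and SLPI encode small inhibitors of neutrophil proteases, built on the whey acidic protein fold, and LCN2 encodes lipocalin-2, which captures bacterial iron carriers. IL32 encodes an intracellular and secreted cytokine, C3 the central protein of the complement cascade, and CFB the protease of its alternative pathway. In airway epithelium such genes are known to be induced by interleukin-1, interleukin-17 and tumour necrosis factor, through NF-kappaB factors and, for several of them, C/EBP factors.

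Because known control of these genes runs through such factors, the 250 bases before the annotated start are shown for the members that matched the RefSeq promoter table, build GRCh38.p14. A match was found for 3 of the 8 members: LCN2 at chr9:128149203-128149452, IL32 at chr16:3065153-3065402 and CFB at chr6:31945845-31946094, all on the plus strand. The LCN2 and CFB windows lie inside the gene bounds that GENCODE 29 gives below. The IL32 window runs across the GENCODE 29 start of its gene, at 3065297. The annotations place these starts differently. Capitals mark matches, on either strand, to the NF-kappaB consensus, a C/EBP site (TTGCNNAA), an AP-1 site (TGANTCA), a cyclic AMP response element (TGACGTCA) or a TATA box (TATAAA).
LCN2 promoter: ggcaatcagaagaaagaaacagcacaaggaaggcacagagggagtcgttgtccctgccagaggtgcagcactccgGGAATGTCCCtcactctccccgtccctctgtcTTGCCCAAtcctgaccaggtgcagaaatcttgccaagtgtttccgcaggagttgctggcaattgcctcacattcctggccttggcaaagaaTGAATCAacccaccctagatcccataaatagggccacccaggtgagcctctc
IL32 promoter: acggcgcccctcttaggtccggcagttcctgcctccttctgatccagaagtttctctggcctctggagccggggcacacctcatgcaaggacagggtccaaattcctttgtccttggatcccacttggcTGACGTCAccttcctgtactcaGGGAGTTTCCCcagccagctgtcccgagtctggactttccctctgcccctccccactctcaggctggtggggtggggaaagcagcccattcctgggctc
CFB promoter: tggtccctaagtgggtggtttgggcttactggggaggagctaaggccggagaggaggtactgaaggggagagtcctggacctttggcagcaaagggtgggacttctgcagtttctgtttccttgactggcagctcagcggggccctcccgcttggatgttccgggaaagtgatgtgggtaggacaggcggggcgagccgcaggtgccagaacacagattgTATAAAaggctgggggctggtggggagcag
In LCN2 the NF-kappaB match lay 175 to 166 bases before the start, the C/EBP match 143 to 136 and the AP-1 match 52 to 46. In IL32 the cyclic AMP response element lay 121 to 114 bases before the start, and overlapping NF-kappaB matches on both strands spanned bases 99 to 89. A later IL32 entry, at chr16:3065534-3065783, held none of the 5 motifs. In CFB the TATA box lay 30 to 25 bases before the start. Among 35116 human promoters of the same length, 5.21% held the NF-kappaB match, 9.05% the C/EBP match, 6.57% the AP-1 match, 1.65% the cyclic AMP response element and 10.7% the TATA box. A match is a stretch of letters, not evidence of binding.

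All 8 genes had every BCLAF1-depleted library above every control library, on CPM (counts scaled to a common library size, adjusted by the TMM method for differences in composition). The same separation held for 16.8% of the 29122 listed genes and for 25.3% of the 15907 genes that passed the low-count filter. Of the 8 genes, 6 passed that filter, while SAA2 and CFB fell below it. The differences spanned a wide range, with PI3 18.9-fold and C3 1.3-fold higher in the BCLAF1-depleted cells. The choice of the genes used this contrast, so nothing is read from the separation itself.

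**Figure D1:**
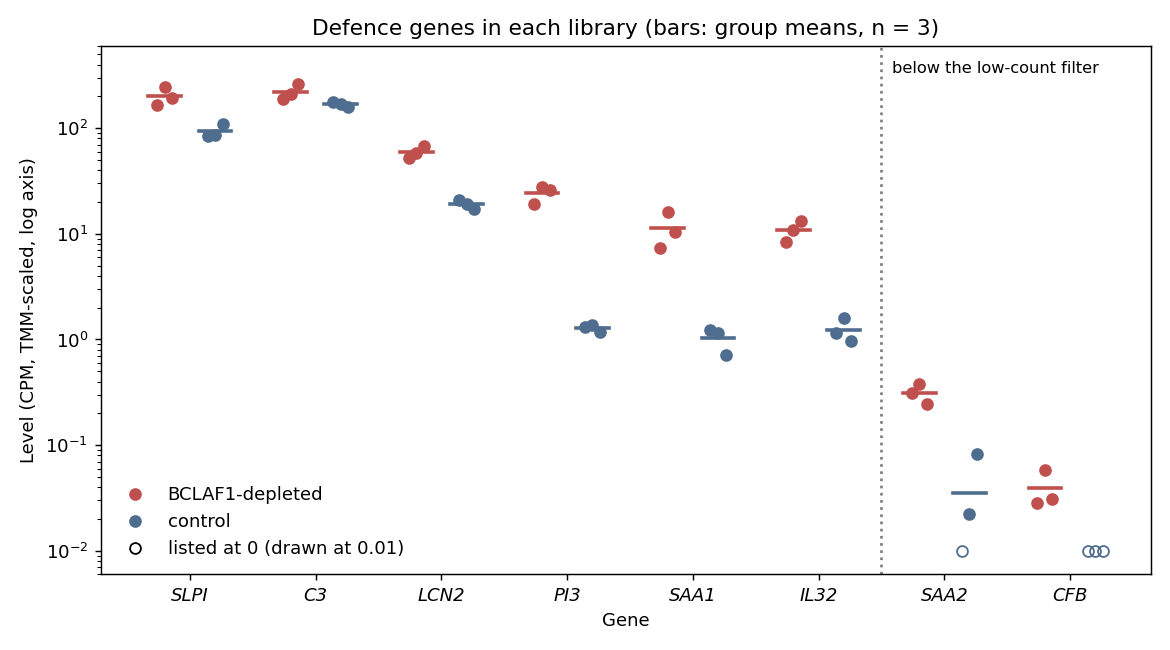
Level of each of the 8 defence genes in each library, in CPM scaled by TMM on a log axis, with group means as bars (3 libraries a group). BCLAF1-depleted libraries lie above control libraries for every gene, from a wide gap for PI3 (24.4 against 1.29 CPM) to a narrow one for C3 (220 against 169 CPM). SAA2 and CFB lie below the low-count filter.

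SAA1 (ENSG00000173432.9, chromosome 11, 18266174 to 18269977, plus strand, GRCh38) had 7.32, 16.2 and 10.4 CPM in the BCLAF1-depleted libraries, against 1.22, 1.15 and 0.706 CPM in the control libraries. Depleted replicate 2 stood highest, and the 3 depleted values differed more among themselves, relative to their mean, than those of the other genes that passed the low-count filter described above. The means were 11.3 ± 4.5 CPM in depleted cells and 1.03 ± 0.279 CPM in control cells (SD, n = 3 each), a log2 fold change of 3.46 ± 0.32 (SE) or 11-fold. The counts behind these levels were 257, 552 and 337 reads in depleted libraries and 54, 51 and 34 reads in control libraries.

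SAA2 (ENSG00000134339.7, chromosome 11, 18239223 to 18248643, minus strand) lies 17530 bases from SAA1. It had 11, 13 and 8 reads in the depleted libraries, against 0, 1 and 4 reads in the control libraries. Over each group this is 32 reads against 5, a depth-adjusted ratio of 8.61 with an exact 95% counting interval of 3.33 to 28.3, which covers counting error only. SAA1 and SAA2 encode nearly the same protein, and 46.6% of the 50-base windows of the SAA1 transcripts also occur in SAA2 transcripts. Reads of these genes can therefore be split or lost by the counting, and each level is uncertain. SAA2-SAA4, a joint transcript that shares 267 exon bases with SAA2, had 11, 12 and 4 reads in depleted libraries and 2, 0 and 0 in control libraries. SAA4, which encodes the constitutive serum amyloid A, had 0 to 2 depleted reads and 0 to 1 control reads. Summed over SAA1, SAA2 and SAA2-SAA4, the locus held 279, 577 and 349 reads in depleted libraries and 56, 52 and 38 in control libraries, so SAA1 carried most of them in both groups.

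PI3 (ENSG00000124102.4, chromosome 20, 45174876 to 45176544, plus strand), the gene for elafin, had the largest fold of the 6 filtered genes. It reached 19.2, 27.9 and 26.1 CPM in depleted libraries, against 1.31, 1.37 and 1.18 CPM in control libraries. Control libraries held it at a low and even level, and the lowest depleted library was far above them. The means were 24.4 ± 4.6 CPM in depleted cells and 1.29 ± 0.097 CPM in control cells (SD, n = 3 each), and the log2 fold change was 4.24 ± 0.19 (SE).

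SLPI (ENSG00000124107.5, chromosome 20, 45252239 to 45254564, minus strand) is a relative of PI3 that lies 75694 bases from it, in the cluster of whey acidic protein genes. No 50-base window is shared by PI3 and SLPI transcripts. SLPI had 167, 247 and 192 CPM in depleted libraries, against 83.6, 86.9 and 110 CPM in control libraries. It was already abundant in control cells, and its groups lay closer together than those of PI3. The means were 202 ± 41.0 CPM in depleted cells and 93.4 ± 14.2 CPM in control cells (SD, n = 3 each), 2.17-fold apart with a log2 fold change of 1.12 ± 0.17 (SE).

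The genes around this pair did not share 1 direction in the read counts. SEMG1, a seminal clotting protein encoded between PI3 and SLPI, had 15, 6 and 15 reads in depleted libraries and 3, 2 and 7 in control libraries. WFDC12, another whey acidic protein gene, had 4, 2 and 3 reads in depleted libraries and 0, 0 and 1 in control libraries. SDC4, a cell surface proteoglycan gene beyond SLPI, overlapped between groups with 1321, 1337 and 1045 depleted reads and 1182, 1222 and 1269 control reads. STK4, a kinase gene on the other side of PI3, was lower in depleted libraries, with 782, 597 and 579 reads against 1360, 1324 and 1302 in control libraries.

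LCN2 (ENSG00000148346.10, chromosome 9, 128149071 to 128153455, plus strand) had 51.9, 58.2 and 67.7 CPM in depleted libraries, against 21.0, 19.1 and 17.0 CPM in control libraries. Both groups were tight relative to the gap between them. The means were 59.2 ± 7.98 CPM in depleted cells and 19.0 ± 2.04 CPM in control cells (SD, n = 3 each), 3.11-fold apart with a log2 fold change of 1.64 ± 0.14 (SE).

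IL32 (ENSG00000008517.15, chromosome 16, 3065297 to 3082192, plus strand) had 8.35, 10.8 and 13.2 CPM in depleted libraries, against 1.15, 1.58 and 0.977 CPM in control libraries. Like PI3 and SAA1 it was near 1 CPM in control cells. The means were 10.8 ± 2.45 CPM in depleted cells and 1.24 ± 0.309 CPM in control cells (SD, n = 3 each), 8.74-fold apart with a log2 fold change of 3.13 ± 0.24 (SE).

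C3 (ENSG00000125730.15, chromosome 19, 6677704 to 6730562, minus strand) had 190, 211 and 260 CPM in depleted libraries, against 177, 169 and 160 CPM in control libraries. Depleted replicate 1 was close to the highest control library. The means were 220 ± 36.2 CPM in depleted cells and 169 ± 8.59 CPM in control cells (SD, n = 3 each), with a log2 fold change of 0.38 ± 0.15 (SE). This small difference depended on the scaling. Scaled by library totals alone, which put the median of all tested genes at -0.21, where it was 0.02 under TMM, the log2 fold change was 0.14, and in the authors' FPKM values (fragments scaled by gene length and library size) the groups overlapped, at 32.6, 31.24 and 34.15 in depleted libraries and 32.38, 30.97 and 29.55 in control libraries.

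CFB (ENSG00000243649.7, chromosome 6, 31945650 to 31952084, plus strand) had 1, 2 and 1 reads in depleted libraries and 0 in each control library. A count of 0 allows up to 3 reads, or 0.0683 to 0.0731 CPM by the totals of the control libraries without TMM, so no fold is given and no difference was detectable in the CFB row at this depth. A second row of the table covers the same exons. This row, XXbac-BPG116M5.17 (ENSG00000244255.4, chromosome 6, 31927698 to 31952048, plus strand), is named AL645922.1 in GENCODE 29 and annotates a joint transcript of CFB and its upstream neighbour C2. Of its 4069 exon bases, 2249 are CFB bases and 1820 are C2 bases, and its CFB part covers 45.0% of the CFB exons.

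That overlapping row had 73, 80 and 71 reads in depleted libraries, against 13, 17 and 16 reads in control libraries. It was not among the chosen genes, and it passed the test, with a log2 fold change of 2.70 ± 0.25 (SE) and an adjusted p of 8.75e-05 (edgeR quasi-likelihood test, Benjamini-Hochberg over 15907 genes). It is reported because it shares exons with CFB, which was chosen on this contrast, so its test is not independent of that choice. C2, the complement protease that the row also overlaps, had 6, 13 and 7 reads in depleted libraries and 18, 6 and 13 in control libraries, with a log2 fold change of -0.08 ± 0.51 and an adjusted p of 0.912. A gene total cannot say which exons the reads came from, so the share of the joint row that belongs to CFB was not tested.

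**Figure D2:**
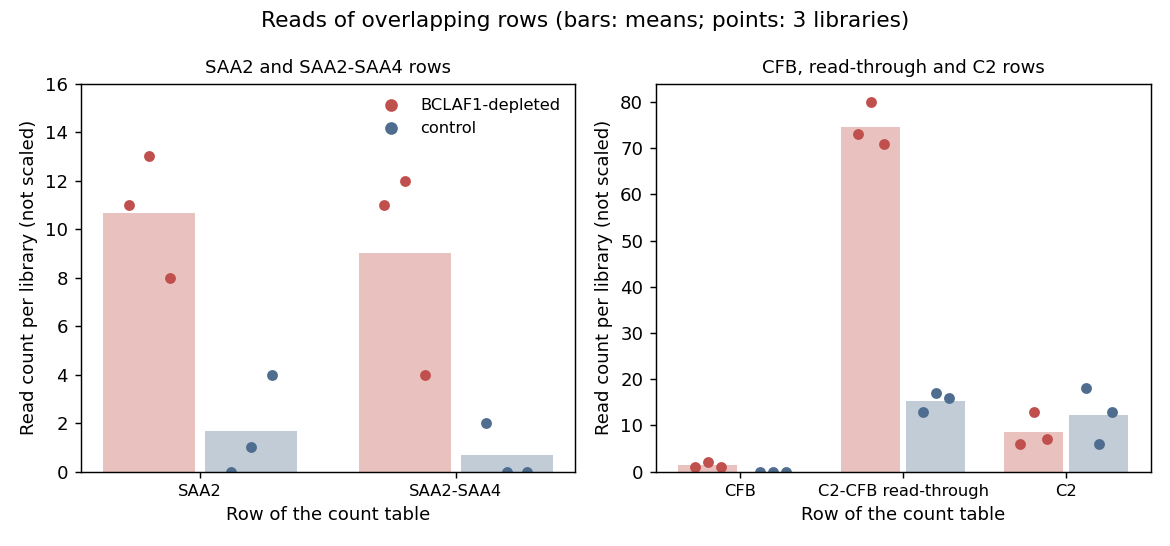
Read counts per library, not scaled, of rows that share exons with SAA2 (left) and CFB (right), with bars for the means of 3 libraries. The joint C2-CFB row held 71 to 80 reads in BCLAF1-depleted libraries and 13 to 17 in control libraries, while the CFB row held 0 to 2 in any library.

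Set on a per-length scale with the authors' FPKM values, the 8 genes covered a broad range of abundance. In the depleted cells SLPI was highest at 267 ± 51.8 FPKM, then LCN2 at 44.5 ± 0.797, PI3 at 33.0 ± 4.11, C3 at 32.7 ± 1.46, SAA1 at 11.5 ± 4.35, IL32 at 4.98 ± 0.472, SAA2 at 0.113 ± 0.0289 and CFB at 0.0133 ± 0.00577 FPKM (SD, n = 3). PI3 and C3 overlapped there, and every other pair of neighbours in this order was separate. In the control cells the order was SLPI at 152 ± 24.1 FPKM, C3 at 31.0 ± 1.42, LCN2 at 17.6 ± 1.8, PI3 at 2.16 ± 0.147, SAA1 at 1.3 ± 0.346, IL32 at 0.707 ± 0.175 and SAA2 at 0.0167 ± 0.0208 FPKM (SD, n = 3), with CFB listed at 0. SAA1 and IL32 overlapped in control cells, as did SAA2 and CFB. C3 thus stood above LCN2 in control cells and below it in depleted cells, and PI3 stood near LCN2 only in depleted cells.

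The genes did not peak in the same depleted library. In CPM, depleted replicate 1 was the lowest of the depleted libraries for all 6 filtered genes, but this order depended on the scaling. In FPKM that library was the highest for LCN2 (45.05, 43.6 and 44.9 FPKM) and not the lowest for SLPI (254.05, 324.17 and 223.13) or C3 (32.6, 31.24 and 34.15). In CPM replicate 2 was the highest for SAA1, SAA2, PI3 and SLPI, and replicate 3 was the highest for LCN2, IL32 and C3. Against the control mean, the log2 ratios of SAA1 were 2.84, 3.98 and 3.34 in depleted replicates 1, 2 and 3, and those of IL32 were 2.76, 3.13 and 3.42. Depleted replicate 3 also had the highest share of mitochondrially encoded reads, 19.3%, against 11.4% and 10.5% in depleted replicates 1 and 2 and 10.7% to 11.1% in control libraries. The part of that share in the levels of replicate 3 was not tested, but the log2 fold changes without that library were 3.52 for SAA1, 4.18 for PI3, 1.15 for SLPI, 1.53 for LCN2, 2.96 for IL32 and 0.24 for C3.

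Short genes were higher in the depleted libraries across the whole table, which bears on this set. Among 5 equal groups of genes by exon length, the shortest (59 to 2289 bases) had a median log2 fold change of 0.35, with 28.6% of genes called higher. The longest group had a median of -0.19, with 10.3% called higher. SAA1, PI3, SLPI and LCN2 are in the shortest group, IL32 is in the next, and C3 is in the longest. With a smooth trend on GC content and length removed, the log2 fold changes were 3.03 for SAA1, 3.81 for PI3, 0.71 for SLPI, 1.30 for LCN2, 2.98 for IL32 and 0.48 for C3. The 4 genes of the shortest group became smaller and C3 larger, and none changed sign. On log2(FPKM + 1), which compresses low genes, they were 2.41 for SAA1, 3.42 for PI3, 0.81 for SLPI, 1.29 for LCN2, 1.81 for IL32 and 0.07 for C3.

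**Figure D3:**
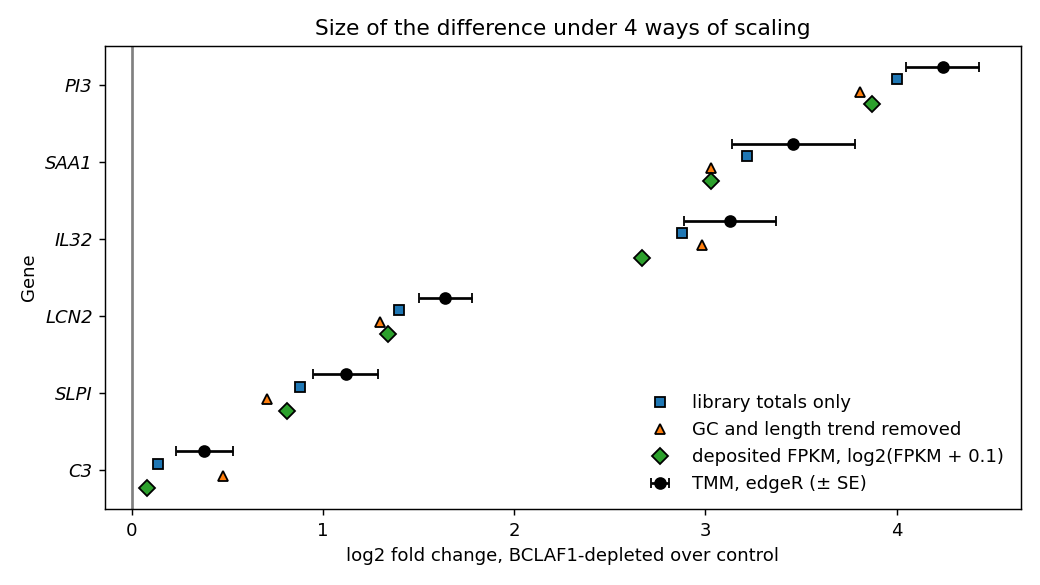
Log2 fold change (BCLAF1-depleted over control) of the 6 genes that passed the low-count filter under 4 scalings, with the SE for the TMM value. PI3, SAA1 and IL32 lie at 2.67 or more in these 4, whereas C3 lies between 0.08 and 0.48.

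To set these genes in their pathway, 174 related genes in 8 lists were examined, of which 92 passed the low-count filter. By edgeR's quasi-likelihood test at an adjusted p under 0.05, 24 were higher, 25 were lower and 43 did not pass. That is 53.3% called, where 35.8% of all 15907 tested genes were called, 17.8% higher and 18.0% lower. The median log2 fold change of the 92 was 0.04, next to 0.02 over all tested genes. The counts were smaller with fewer control libraries: without control replicate 1, 2 or 3 in turn, 16, 15 and 15 were higher and 14, 13 and 16 were lower. Without depleted replicate 2, 19 were higher and 17 lower. The split also moved with the scaling, to 13 higher and 30 lower by library totals and 10 higher and 29 lower on log2(FPKM + 1). Under every alternative that tested them, 20 of the 49 calls held, 7 higher and 13 lower. The lists, like the 8 genes, were not independent of earlier results of these data.

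**Figure D4:**
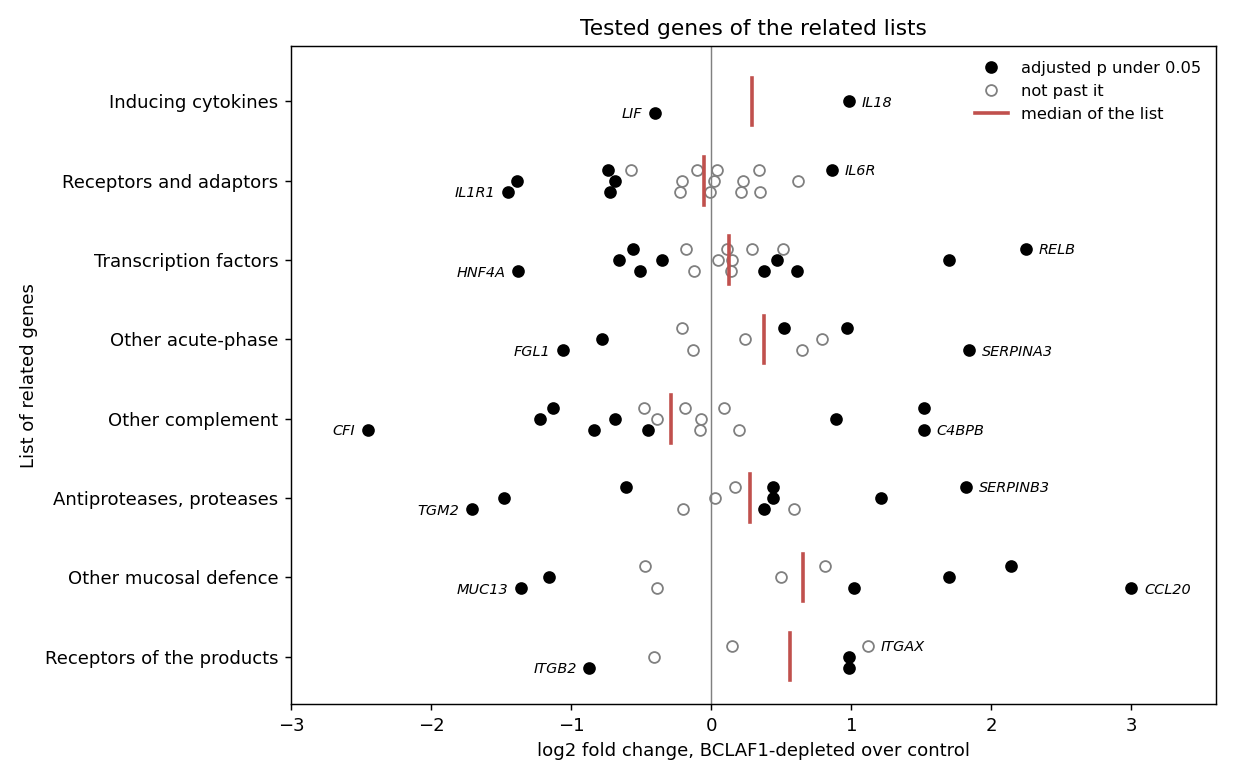
Log2 fold change (BCLAF1-depleted over control) of the 92 tested related genes by list, filled where the adjusted p is under 0.05 (edgeR), with the list median as a bar. Calls in both directions appear in every list, from CCL20 at 3.0 to CFI at -2.45.

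The transcription factors known to drive such genes split by family member. RELB and NFKB2, the partners of the non-canonical NF-kappaB pathway, rose in depleted cells. RELB had 19.0, 21.8 and 17.9 CPM in depleted libraries, against 3.87, 4.46 and 3.97 in control libraries (log2 fold change 2.25 ± 0.14 SE, edgeR adjusted p 1.05e-05). NFKB2 had 142, 157 and 149 CPM in depleted libraries, against 45.8, 46.2 and 46.0 in control libraries (1.70 ± 0.11, adjusted p 1.4e-05). Neither pair of groups came near to overlapping. Of the canonical subunits, REL passed as higher (0.47 ± 0.12, adjusted p 0.014), with 19.1, 16.7 and 18.2 CPM in depleted libraries and 13.3, 12.4 and 13.4 in control libraries, whereas RELA (0.15 ± 0.13, adjusted p 0.38) and NFKB1 (0.14 ± 0.21, adjusted p 0.627) did not pass. REL lost its call without control replicate 1 (0.0674), 2 (0.0879) or 3 (0.0552) and scaled by library totals (0.317). CEBPB (0.05 ± 0.13, adjusted p 0.803) and CEBPD (0.29 ± 0.13, adjusted p 0.0965) did not pass either. These 5 genes are named after their values were seen, and scaled by library totals RELA, NFKB1 and CEBPB had log2 fold changes of -0.09, -0.06 and -0.19. HNF4A, a hepatocyte nuclear factor of liver and gut epithelium, fell, with 8.29, 6.65 and 8.35 CPM in depleted libraries and 20.0, 19.5 and 21.2 in control libraries (-1.38 ± 0.14, adjusted p 0.000126). In all, 5 of the 18 tested factors rose, 5 fell and 8 did not pass. The list median was 0.12, and -0.10 scaled by library totals. Without control replicate 1, 2 or 3 in turn, 2 factors were higher each time and 1, 1 and 2 were lower, and without depleted replicate 2, 2 were lower.

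Of the 16 inducing cytokines only IL18 and LIF passed the low-count filter. IL18, a cytokine of the interleukin-1 family made by epithelium, rose, with 104, 116 and 81.0 CPM in depleted libraries and 54.1, 56.7 and 41.6 in control libraries (0.98 ± 0.17, edgeR adjusted p 0.00251). LIF, of the interleukin-6 family, had 98.8, 81.6 and 72.9 CPM in depleted libraries and 112, 108 and 116 in control libraries (-0.40 ± 0.14, adjusted p 0.0416), and that call was lost without each library in turn other than depleted replicate 1 (adjusted p 0.077 to 0.132). IL1A, an interleukin-1 gene below the filter, had 25, 8 and 20 reads in depleted libraries and 2, 7 and 3 in control libraries, so its groups did not overlap. In the fits that left out control replicate 1, 2 or 3 or depleted replicate 2, another cytokine passed the filter and 2 were called higher. Among receptors and adaptors, 1 of 18 tested genes rose, 5 fell and 12 did not pass, with a median of -0.05. The 33.3% called was near the 35.8% of all tested genes. The 5 lower became 2, 1 and 2 without control replicate 1, 2 or 3, 2 without depleted replicate 2 or 3, and 8 without depleted replicate 1, where 4 were higher. IL1R1, the signalling receptor of interleukin-1, fell to 11.2, 10.6 and 9.92 CPM in depleted libraries, against 29.6, 27.1 and 29.7 in control libraries (-1.45 ± 0.12, adjusted p 5.1e-05). IL6R, the interleukin-6 receptor, rose, with 9.52, 12.5 and 11.8 CPM in depleted libraries and 6.04, 6.72 and 5.86 in control libraries (0.86 ± 0.15, adjusted p 0.00283). These receptors moved in opposite directions.

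The other acute-phase genes gave 3 higher, 2 lower and 5 not past the test among 10 tested, with a median of 0.38. The list was not split by whether a gene rises or falls in the acute-phase response, so these figures give no direction for it. The 3 higher were AHSG, FGA and a row under the symbol SERPINA3. FGA, named after its values were seen (0.52 ± 0.15, edgeR adjusted p 0.0198), lost its call without each control library in turn (0.0719 to 0.0945). Without control replicate 2 or 3, and scaled by library totals, 1 was higher. The symbol of the antiprotease gene SERPINA3 stands on a pair of rows. One held 0, 0 and 1 reads in depleted libraries and 0, 1 and 4 in control libraries. The other, ENSG00000273259.2, is a locus named AL049839.2 in GENCODE 29 and rose, with 5.61, 3.43 and 3.82 CPM in depleted libraries and 1.40, 1.17 and 1.02 in control libraries (1.84 ± 0.24, edgeR adjusted p 0.000628). FGL1, a fibrinogen-like liver protein, fell to 12.2, 10.6 and 6.90 CPM in depleted libraries, against 21.6, 22.8 and 17.5 in control libraries (-1.06 ± 0.20, adjusted p 0.00408). CP, the copper-carrying ferroxidase ceruloplasmin, also fell, with 25.8, 19.1 and 24.2 CPM in depleted libraries and 40.9, 40.5 and 37.2 in control libraries (-0.78 ± 0.14, adjusted p 0.00273). Classical acute-phase genes other than the serum amyloids thus included members that fell.

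Of the 16 other complement genes tested, 3 rose, 6 fell and 7 did not pass, with a median of -0.29. Factors that restrain C3 were among those that fell, but so were CFD (-0.69 ± 0.19, edgeR adjusted p 0.0191) and C5 (-0.84 ± 0.15, adjusted p 0.00327). CFD and C5 are not such restraints and are named after their values were seen. The CFD call was lost without control replicate 1 (edgeR adjusted p 0.0577) or 2 (0.0692), while that of C5 held without each library in turn. CFI, the protease that inactivates C3b, fell to 1.03, 0.967 and 1.08 CPM in depleted libraries, against 6.06, 5.18 and 5.59 in control libraries (-2.45 ± 0.18, edgeR adjusted p 2.34e-05). CD46, a membrane cofactor of CFI named after its values were seen, fell to 162, 104 and 88.0 CPM in depleted libraries, against 268, 268 and 242 in control libraries (-1.13 ± 0.21, adjusted p 0.00342). CLU, the gene for clusterin, an inhibitor of the terminal complex, rose, with 1600, 1580 and 2380 CPM in depleted libraries and 636, 633 and 671 in control libraries (1.52 ± 0.19, adjusted p 0.000505). VTN, the gene for vitronectin, another terminal inhibitor named after its values were seen, rose as well, with 28.6, 26.1 and 29.2 CPM in depleted libraries and 15.4, 15.7 and 14.1 in control libraries (0.89 ± 0.12, adjusted p 0.000627). CD59, the membrane inhibitor of the terminal complex, also named after its values were seen, did not pass, with 96.1, 89.2 and 66.4 CPM in depleted libraries and 109, 114 and 108 in control libraries (-0.39 ± 0.15, adjusted p 0.0608). Its adjusted p was 0.0433 scaled by library totals, 0.0244 without a low-count filter and 0.0472 by DESeq2. Without control replicate 1 or 2, 4 complement genes were lower.

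Among other antiproteases, proteases and cross-linking enzymes, 5 of 12 rose, 3 fell and 4 did not pass, with a median of 0.27. Only 2 were higher without control replicate 1, 2 or 3 in turn or scaled by library totals, and 3 without depleted replicate 2. CSTB, CST3 and SPINT2, protease inhibitors, were the higher calls lost without each control library. SERPINB3, an epithelial cysteine protease inhibitor, was low but rose, with 0.427, 0.469 and 0.678 CPM in depleted libraries and 0.136, 0.158 and 0.145 in control libraries (1.82 ± 0.39, edgeR adjusted p 0.00693). The transglutaminases, which attach elafin to the tissue matrix, went opposite ways. TGM2 fell to 315, 187 and 219 CPM in depleted libraries, against 761, 775 and 827 in control libraries (-1.71 ± 0.20, adjusted p 0.000313). TGM1 rose, with 1.71, 1.61 and 2.46 CPM in depleted libraries and 0.633, 0.992 and 0.873 in control libraries (1.21 ± 0.27, adjusted p 0.00835).

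Other mucosal defence genes gave 4 higher, 2 lower and 4 not past the test among 10 tested, with a median of 0.66. That median was 0.12 without depleted replicate 3, -0.43 over the 5 genes with at least 5 CPM and -0.26 on log2(FPKM + 1), and without depleted replicate 2 only 2 were higher. SFTPD, the gene for surfactant protein D and 1 of the 4, lost its call without each library in turn (adjusted p 0.0755 to 0.194). CCL20, a chemokine with antimicrobial activity that epithelium makes, rose, with 1.11, 1.61 and 2.28 CPM in depleted libraries and 0.0905, 0.451 and 0.0831 in control libraries (3.0 ± 0.54, edgeR adjusted p 0.00329). S100A9, a subunit of the metal-chelating protein calprotectin, rose, with 3.68, 4.89 and 4.19 CPM in depleted libraries and 0.905, 0.811 and 1.16 in control libraries (2.14 ± 0.22, adjusted p 0.000146). MUC13, a membrane mucin, fell to 134, 135 and 144 CPM in depleted libraries, against 361, 363 and 340 in control libraries (-1.36 ± 0.12, adjusted p 7.9e-05). MUC5AC, a secreted airway mucin named after its values were seen, did not pass (0.81 ± 0.34, adjusted p 0.09). It had 6420 CPM in depleted replicate 3, where the other depleted libraries had 2270 and 2570 and the control libraries 2010 to 2240. Of the receptors for the products of these genes, 2 of 6 tested rose, 1 fell and 3 did not pass, with a median of 0.57. C5AR1, the receptor of the complement fragment C5a, rose, with 3.70, 4.66 and 3.48 CPM in depleted libraries and 2.17, 1.94 and 1.89 in control libraries (0.98 ± 0.19, adjusted p 0.00404). ITGB2, the common chain of the leukocyte integrins that bind C3 fragments, fell (-0.87 ± 0.19, adjusted p 0.00733).

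Several calls on related genes rested on particular libraries. By edgeR's adjusted p, LIFR, the receptor of LIF (-0.74), was lost without control replicate 2 (0.0502). AHSG, the gene for fetuin-A (0.97), was lost without control replicate 2 (0.0636) or 3 (0.0756). C4BPB, a chain of the C4b-binding protein (1.52), was lost without control replicate 2 (0.089) or 3 (0.0991) or depleted replicate 2 (0.115). BPIFB1, an airway lipid-binding defence protein (1.70), was lost without control replicate 1 (0.0651) or 3 (0.103) or depleted replicate 1 (0.0849) or 2 (0.0899). ITGAM, the partner of ITGB2 in the iC3b receptor (0.98), was lost without control replicate 1 (0.0542) or 2 (0.0949) or depleted replicate 2 (0.0526). TLR5, the flagellin receptor (-1.39), and ELANE, the neutrophil elastase that elafin and SLPI inhibit (-1.48), were each lost without each library in turn other than depleted replicate 1 (adjusted p 0.0753 to 0.152 and 0.0619 to 0.0947). Each log2 fold change in brackets is from the fit on all 6 libraries. The calls of IL18, IL6R, TGM1, C5AR1 and the AL049839.2 row under the symbol SERPINA3 held without each library in turn. On log2(FPKM + 1) without a filter these calls did not hold (limma adjusted p 0.0512 to 0.119).

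The genes whose level over the 6 libraries was most like the mean standardised profile of the 6 filtered defence genes were EIF3M and EXOSC5 (Pearson's r 0.999 each) and LIPH, GLRX and HCFC1 (0.998 each). EIF3M is a translation initiation subunit, EXOSC5 a subunit of the RNA exosome, LIPH a lipase, GLRX a glutaredoxin and HCFC1 a transcriptional cofactor. EXOSC5, for example, had 29.2, 37.9 and 39.4 CPM in depleted libraries and 17.1, 16.8 and 15.8 in control libraries. With 2 groups in 6 libraries such likeness is common: an r of at least 0.9 was reached by 1380 of 10166 candidates, or 13.6%, candidates being tested genes that averaged 5 CPM or more.

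The libraries held 33409158 to 40820922 counted reads in depleted cells and 41019185 to 43928927 in control cells. BCLAF1 itself was at 39.0, 35.7 and 53.1 CPM in depleted libraries, against 211, 199 and 203 in control libraries, 4.80-fold lower (log2 fold change -2.26 ± 0.16, edgeR adjusted p 2.31e-05). Of 10 markers of A549 and lung epithelium, 7 were above 1 CPM in every library, and their sum was 39100 to 45300 CPM in depleted and 38200 to 40000 CPM in control libraries. KRT19, NKX2-1 and SFTPC were under 1 CPM in every library, and NKX2-1 and SFTPC mark alveolar type II cells. As defence genes are also made by leukocytes and hepatocytes, markers of those cells were summed. The leukocyte markers with a row, 5 of 8, gave 0.826 to 1.76 CPM in depleted and 0.473 to 1.66 CPM in control libraries, most of it CD68, with PTPRC at 0 to 4 reads. The 7 hepatocyte markers gave 0.0616 to 0.285 CPM in depleted and 0.229 to 0.407 CPM in control libraries, with CYP2E1 at 1 to 2 reads in depleted and 7 to 11 reads in control libraries. The 6 fibroblast markers summed to 14.8 to 16.8 CPM in depleted and 22.6 to 25.4 CPM in control libraries, and THY1 had 0 to 3 reads. COL1A1 was the largest part, at 8.86, 10.6 and 10.2 CPM in depleted libraries and 17.0, 17.9 and 18.2 in control libraries. COL1A2, DCN and LUM overlapped between groups, and PDGFRB, under 1 CPM, was higher in depleted libraries. In bulk RNA, fewer cells expressing a gene and less of its RNA per cell cannot be told apart.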

How the data were processed

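RNA of 3 BCLAF1-depleted and 3 control A549 libraries was measured by directional, poly(A)-selected RNA sequencing, per the labels' protocols. The authors deposited read counts per gene, not normalized, for 29122 genes, and FPKM values for 28878 genes, which are scaled by gene length and library size. The tools bcl2fastq, TopHat2 and edgeR and the build GRCh38 are named, per the submitters' processing notes. The sources used here do not name the counting tool, annotation or strand setting, so reads of overlapping genes may be assigned to either.

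The 8 genes, the related lists and the tests were chosen with earlier results of these data known. The rule for named genes took the 8 genes, BCLAF1, genes sharing their exons, up to 4 called genes of the largest absolute log2 fold change per related list, and the 5 genes of most similar profile. Genes named outside it are marked, and some genes it takes are not reported here. Counts were fitted in R 4.3.3 with edgeR 4.0.16 (glmQLFit and glmQLFTest, TMM scaling, group as the only term, 6 libraries) after filterByExpr (minimum count 10, minimum total count 15), which kept 15907 genes. Benjamini-Hochberg adjustment ran over all of them, with calls made at an adjusted p under 0.05. The SE is the log2 fold change divided by the root of F. FPKM served for levels between genes and for alternatives, as log2(FPKM + 1) or log2(FPKM + 0.1) in limma 3.58.1. Alternatives also used DESeq2 1.42.0, limma-voom, other scalings and filters, removal of a GC and length trend (mgcv 1.9.3), a replicate term and leaving out each library. Positions, lengths and overlaps are from GENCODE 29 (GRCh38), which held 28362 of the 29122 identifiers. The fits were tested on simulated counts first. Library totals were 33409158 to 43928927 counts. Intervals and the floor of 3 counts cover counting error only, since reads carry no molecular identifiers.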

Additional observations from a re-analysis of the deposited data

How the results depend on the processing

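Scaling, filtering and the threshold changed how many genes were called. No gene called in either fit changed sign, but 94 of 1818 values did, each of a gene not called in either. Scaled by library totals only, 13 related genes were higher and 30 lower, and 1283 of all tested genes were higher and 3662 lower. The median of the related genes was then -0.18, where it was 0.04. With at least 5 CPM required in 3 libraries, 15 related genes were higher. At an adjusted p under 0.01, 12 related genes were higher and 13 lower, and 1149 of all genes were higher and 1289 lower. On log2(FPKM + 1), 10 related genes were higher and 29 lower, 919 of all genes were higher and 3918 lower, and the median of the 6 filtered defence genes was 1.55, where it was 2.38 on counts. On log2(FPKM + 0.1), 10 related genes were higher and 29 lower, 885 of all genes were higher and 3743 lower, and the median was 2.0. On log2(FPKM + 1) without a filter, 8 related genes were higher and 22 lower, 573 of all genes were higher and 2057 lower, and the median was 1.55. The cause was not tested. In FPKM the groups of C3 overlapped. Leaving out each library in turn gave 15 to 28 related genes higher and 13 to 30 lower, 1383 to 3741 of all genes higher and 1549 to 4195 lower, and a defence gene median of 2.24 to 2.49. Groups that are separate on all 6 libraries stay separate when any library is dropped, so nothing is read from the separation of the 8 genes there. For CFB, 1 to 2 reads against 0 are under the floor. Over single genes and alternatives, 1460 values were the same in direction and label, 174 lost a call, 65 gained one and 25 moved without a test. For the 6 filtered defence genes, which have no test, the same label meant a change under the SD of log2 CPM over depleted libraries. For the other genes it meant the same side of the threshold.

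Same-numbered replicates did not deviate together in all pairs: the correlations of their deviations from the group means were 0.036, 0.047 and 0.119, so the numbers were not taken to pair the libraries. Each library did correlate best with its own number, a hint from the data and not from the design. With the replicate block, 24 related genes were higher and 26 lower, 2886 of all genes were higher and 3121 lower, and the defence gene median was 2.38. With the block and the GC and length trend removed it was 2.13. Depth limits CFB, SAA2 and most inducing cytokines, which lay under the low-count filter.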
